A study of Homo sapiens and Mus musculus with 41 samples.

Results

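The serum amyloid and growth-factor cytokine genes described here are SAA1, SAA2, Saa3, TNF, IL6, IL11, LIF, CSF1, CSF2 and CSF3. They were found by their symbols in the tables of 4 tumour models: 9 of the 10 among 23368 human genes in each of the 3 human tables, and all 10 among 23337 genes in the mouse table. Saa3 was taken as a member in the mouse alone. Only genes that reached 10 in 2 or more of a model's libraries were tested: 9 members passed in HCC1954, 9 in MDA-MB-231, 8 in PC9 and 7 in LLC. The members short of it were CSF3 in PC9 and Saa1, Saa2 and Tnf in LLC, for which levels are given and no test. CSF3 in HCC1954 and Il6 in LLC passed through Lep alone, and TNF in MDA-MB-231 and Saa3, Csf2 and Csf3 in LLC through Int and Lep alone. A gene let in by the stage where it is high had to differ. The p-values of these genes, and the counts and medians over tested members below, are therefore descriptions.

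These genes encode secreted proteins of inflammation. Serum amyloid A proteins are apolipoproteins that liver and other cells release in the acute phase, and their genes respond to interleukin 6, interleukin 1 and TNF through the transcription factors STAT3, C/EBP and NF-kB. Interleukin 6, interleukin 11 and leukaemia inhibitory factor (LIF) share the receptor subunit gp130, encoded by IL6ST, which signals through JAK kinases to STAT3 and is checked by SOCS3. The colony-stimulating factors CSF1 (M-CSF), CSF2 (GM-CSF) and CSF3 (G-CSF) act on macrophages, on several myeloid lineages and on neutrophils. In the central nervous system these ligands act on microglia, border macrophages and the barriers around the cerebrospinal fluid.

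RNA was measured in 41 libraries of cultured tumour cells. HCC1954 is a human breast carcinoma line of the ductal type with raised HER2, MDA-MB-231 a human breast line without oestrogen, progesterone or HER2 receptors, PC9 a human lung adenocarcinoma line with raised EGFR, and LLC a Lewis lung carcinoma line that arose in C57/B6 mice. Each model had 4 stages: Par, the parental line; Int, an intermediate derivative; Lep, the derivative from leptomeningeal metastases; and BrM, a brain metastatic derivative. HCC1954 had 3 Par, 2 Int, 3 Lep and 2 BrM libraries, MDA-MB-231 and PC9 each had 3, 2, 2 and 3, and LLC had 3, 2, 3 and 3. All parental lines carried GFP. Leptomeningeal derivative cells came from rinses of the leptomeningeal space of mice. They were grown on plastic in serum-containing medium until all of them expressed GFP and then passaged before RNA was taken. How BrM cells were recovered is not described here. Every level below is that of cells in culture. The Par replicates are technical, and the design text gives a mix of biological and technical ones for Int and Lep without saying which and does not describe those of BrM, so the p-values measure the spread between these libraries. Values are the authors' normalized counts, that is reads divided by 1 size factor per library; each model was scaled alone, so no test crosses models. In bulk RNA, fewer cells that express a gene and less of its RNA per cell cannot be told apart.

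The libraries of HCC1954 held 25330801 to 67367833 recovered reads and those of PC9 held 16792027 to 38432963. MDA-MB-231 libraries held 23508951 to 110830546 and LLC libraries 18029707 to 67939274. Some libraries stood apart from others of their stage. In MDA-MB-231 the deviation of a gene from its mean over libraries went with transcript length (Spearman's rho across genes of 0.468, -0.346 and -0.449 in Par replicates 1, 2 and 3, and of -0.087, -0.474 and -0.447 in BrM replicates 1, 2 and 3). It was 0.449 and 0.434 in the Int replicates, close to Par replicate 1 and opposite in sign to Par replicates 2 and 3, and 0.222 and 0.0097 in the Lep replicates. In PC9 this trend followed the stage, at 0.266 to 0.398 in Par and BrM and at -0.475 to -0.374 in Int and Lep, so values with a length correction, added after the data were seen, stand beside the called PC9 results of the members and the Int with Par calls of MDA-MB-231. In HCC1954 it stayed between -0.061 and 0.081. For LLC neither the length trend nor a length correction was computed. Of the markers of the lines, ERBB2, which encodes HER2, lay between 57461 and 398639 in HCC1954, and EGFR between 9147 and 9752 in PC9 Par but between 1527 and 1928 in PC9 Int and Lep. The epithelial genes Epcam and Cdh1 were all but absent from LLC: Epcam was at or under 2.56 and Cdh1 at or under 4.76 in every LLC library. In MDA-MB-231, ESR1 reached 19.3 and PGR 58.3 at most, and ERBB2 lay between 2748 and 3998.

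SAA1 and SAA2 are near-identical copies, which bears on how their reads were assigned. In GENCODE 29 the transcripts SAA1-201 and SAA2-201 both have 369 coding bases, 11 of which differ (97.0% identity). The stretch from coding base 204 to base 323 holds 10 of those differences and is shown 5′ to 3′ with the differing bases in capitals.
SAA1: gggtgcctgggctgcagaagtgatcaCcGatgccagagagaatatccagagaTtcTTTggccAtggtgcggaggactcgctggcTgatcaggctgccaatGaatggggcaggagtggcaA
SAA2: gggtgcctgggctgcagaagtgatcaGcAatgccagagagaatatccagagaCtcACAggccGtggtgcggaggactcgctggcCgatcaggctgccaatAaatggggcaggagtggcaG
Of the stretches of 50 bases, the read length of 3 models, 34.1% in SAA1-201 and 37.5% in SAA2-201 occurred whole in the other transcript. At 75 bases, the read length of MDA-MB-231, the shares were 21.8% and 24.1%. No label states how the counting treated reads that fit both genes, so the split between SAA1 and SAA2 is uncertain. Other rows of the family held few reads over the 30 human libraries: 373 for SAA4, 6 for SAA3P and 0 for the readthrough row SAA2-SAA4.

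Promoter sequence from RefSeq (GRCh38.p14) was matched for 4 of the 9 human members: TNF, IL6, IL11 and CSF2. The 250 bases before the start of IL6, CSF2 and IL11 are printed because each holds a match to a motif searched; TNF, whose window held none, is left out. Capitals mark matches on either strand to the NF-kB consensus, the C/EBP motif TTGCNNAA, the STAT motif TTCNNNGAA or the AP-1 motif TGANTCA.
IL6 (chr7:22726950-22727199, plus strand): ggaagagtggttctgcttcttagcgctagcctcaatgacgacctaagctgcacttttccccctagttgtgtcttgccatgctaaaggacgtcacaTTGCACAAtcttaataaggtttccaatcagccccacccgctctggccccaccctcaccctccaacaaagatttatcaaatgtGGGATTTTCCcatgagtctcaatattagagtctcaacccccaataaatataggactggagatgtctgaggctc
CSF2 (chr5:132073539-132073788, plus strand): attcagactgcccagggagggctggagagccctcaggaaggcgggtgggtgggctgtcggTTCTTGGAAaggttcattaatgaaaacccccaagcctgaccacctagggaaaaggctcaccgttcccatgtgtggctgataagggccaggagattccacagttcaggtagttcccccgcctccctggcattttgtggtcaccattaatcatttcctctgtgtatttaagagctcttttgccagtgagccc
IL11 (chr19:55370464-55370713, minus strand): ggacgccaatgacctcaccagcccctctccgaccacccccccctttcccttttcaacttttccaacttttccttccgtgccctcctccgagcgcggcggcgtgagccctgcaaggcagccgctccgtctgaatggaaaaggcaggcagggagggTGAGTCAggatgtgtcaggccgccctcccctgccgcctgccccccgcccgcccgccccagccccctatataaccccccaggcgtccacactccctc
IL6 held 1 match to the NF-kB consensus, which begins 73 bases before the start, and 1 to the C/EBP motif at 155 bases. CSF2 held 1 STAT match at 190 bases before the start and IL11 1 AP-1 match at 96 bases. TNF held 0 matches to the 4 motifs in this window, which says only that these letters are not there. No matches overlapped. Among 35116 promoter windows of this length, 9.96% held the NF-kB consensus, 9.05% the C/EBP motif, 6.57% the STAT motif and 6.57% the AP-1 motif.

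In HCC1954 both serum amyloid genes were far higher in Lep and BrM than in Par, with Int between. SAA1 was 794, 769 and 746 in the Par libraries, 1594 and 2165 in Int, 5948, 6719 and 6087 in Lep and 5812 and 6077 in BrM. Every Lep and BrM library lay above every Int library and these above every Par library, while Lep and BrM overlapped. SAA1 rose by 3.02 ± 0.08 (limma, adjusted p = 1.26e-12) on the log2 scale in Lep, 2.95 ± 0.09 (limma, adjusted p = 7.73e-12) in BrM and 1.27 ± 0.09 (limma, adjusted p = 3.63e-08) in Int. SAA2 was 250.1, 307 and 322 in Par, 518 and 646 in Int, 2162, 2329 and 2184 in Lep and 1749 and 2012 in BrM. The stages of SAA2 did not overlap, and its order was Lep, BrM, Int, Par. Its log2 difference was 2.93 ± 0.10 (limma, adjusted p = 6.56e-12) in Lep and 2.68 ± 0.11 (limma, adjusted p = 7.31e-11) in BrM against Par. In Int it was 0.99 ± 0.11 (limma, adjusted p = 1.95e-06), just short of the fold threshold of 1, and it passed with quantile normalization, a length correction or a replicate block, and without Par replicate 2, Par replicate 3 or Int replicate 1 (1.02 to 1.21). SAA2 made up 23.0% to 30.1% of the SAA1 and SAA2 reads of any HCC1954 library.

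PC9 shared the rise in Lep and Int but not the level in BrM. SAA1 was 148, 150.2 and 129.7 in Par, 729.6 and 963 in Int, 1058 and 1085 in Lep and only 3.53, 3.94 and 4.82 in BrM. The stages did not overlap: Lep was highest, then Int, Par and, far below, BrM. The log2 difference from Par was 2.90 ± 0.16 (limma, adjusted p = 3.03e-08) in Lep, 2.55 ± 0.16 (limma, adjusted p = 7.83e-08) in Int and -4.82 ± 0.15 (limma, adjusted p = 1.62e-10) in BrM, and with the length correction 2.34, 1.98 and -4.75. SAA2 was 36.8, 57.4 and 27.0 in Par, 184 and 259.8 in Int, 278 and 275 in Lep and 0, 0 and 2.89 in BrM. It was ordered like SAA1, with 2 of the 3 BrM libraries at 0. SAA2 rose by 2.81 ± 0.50 (limma, adjusted p = 0.000306) in Lep and 2.47 ± 0.50 (limma, adjusted p = 0.000846) in Int and fell in BrM (-4.65 ± 0.45, limma, adjusted p = 4.81e-06), and the length correction gave 2.33, 1.98 and -4.59. Lep exceeded BrM by 7.72 ± 0.16 (limma, adjusted p = 5.18e-12) for SAA1 and 7.46 ± 0.50 (limma, adjusted p = 6.17e-08) for SAA2, and by 7.09 and 6.92 with the length correction. Between Lep and Int the libraries did not overlap, but the differences of 0.35 ± 0.18 (limma, adjusted p = 0.333) and 0.34 ± 0.55 (limma, adjusted p = 0.819) did not pass.

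S100A8 and S100A9, which neutrophils and also epithelial cells express, differed between the stages too. The neutrophil list of 6 genes, found whole, summed to 108315 to 113063 in HCC1954 Par, 396279 to 444855 in Int, 838320 to 902370 in Lep and 393340 to 429620 in BrM. In PC9 the sums were 19887 to 21551 in Par, 39471 to 54553 in Int, 58512 to 69350 in Lep and 2922 to 3146 in BrM. S100A8 and S100A9 made up nearly all of these sums. In PC9 the sums were ordered like SAA1, while in HCC1954 BrM overlapped Int for the sum and Lep for SAA1. ELANE and MPO, which mark neutrophil precursors, were at or under 7.57 in HCC1954 and at or under 1.64 in PC9, and CXCR2 was at or under 3.24 in both. The list also holds CSF3R, the receptor gene of CSF3. In HCC1954 CSF3R, S100A8 and S100A9 were the 3 list genes tested. All 3 were called higher in Lep than in Par, where 13.0% of all tested genes were called higher. The part of cell mixture or state in these results was not tested.

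In MDA-MB-231 the serum amyloid genes varied widely among the BrM libraries. SAA1 was 505, 1390 and 1512 in Par, 3893 and 4320.4 in Int, 5879.9 and 2671 in Lep and 135, 16679 and 8584 in BrM. BrM replicate 1 held the lowest value of the model and BrM replicates 2 and 3 its highest values, while both Int and both Lep libraries lay above all Par libraries. SAA2 was 47.4, 88.8 and 115 in Par, 638 and 855 in Int, 686 and 296 in Lep and 8.58, 1203 and 718 in BrM. Its lowest and highest values were again in BrM replicates 1 and 2, and Int and Lep again lay above Par. None of the differences from Par passed: SAA1 differed by 1.96 ± 1.66 (limma, adjusted p = 0.749) in Lep and SAA2 by 2.51 ± 1.68 (limma, adjusted p = 0.669) in Lep and 3.22 ± 1.68 (limma, adjusted p = 0.194) in Int. Without BrM replicate 1, SAA1 and SAA2 were called higher in BrM than in Par. The SAA2 share of SAA1 and SAA2 reads ran from 6.003% to 8.58% in Par, 14.1% to 16.5% in Int, 9.97% to 10.45% in Lep and 5.97% to 7.72% in BrM. These shares did not overlap between Int or Lep and the rest, but some rest on few reads. The 95% confidence interval was 6.51% to 11.22% in Par replicate 1 and 2.35% to 14.37% in BrM replicate 1, which had 4 SAA2 reads. Both intervals cover the Lep shares.

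LLC cells showed their serum amyloid signal in Saa3, a mouse gene known for expression outside the liver. Saa1 had reads in Par replicate 1 alone (0.711) and Saa2 in Int replicate 1 (0.548) and Lep replicate 2 (1.28), so neither was tested. Saa3 was 4.27, 6.64 and 8.32 in Par, 5.48 and 10.7 in Int, 33.2, 119 and 28.8 in Lep and 0, 6.55 and 0 in BrM. All 3 Lep libraries lay above every other library, and Lep replicate 2 was highest. Saa3 passed the filter only through Int and Lep, so its differences and p-values are a description. Saa3 rose in Lep by 2.78 ± 0.77 (limma, adjusted p = 0.0102) against Par, 4.66 ± 0.77 (limma, adjusted p = 0.00057) against BrM and 2.51 ± 0.86 (limma, adjusted p = 0.0292) against Int. The last of these was lost without Int replicate 1, Int replicate 2 or Lep replicate 2 (adjusted p of 0.187, 0.0621 and 0.0998), while the difference from Par without Lep replicate 2 was 2.15 (limma, adjusted p = 0.0466).

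**Figure D1:**
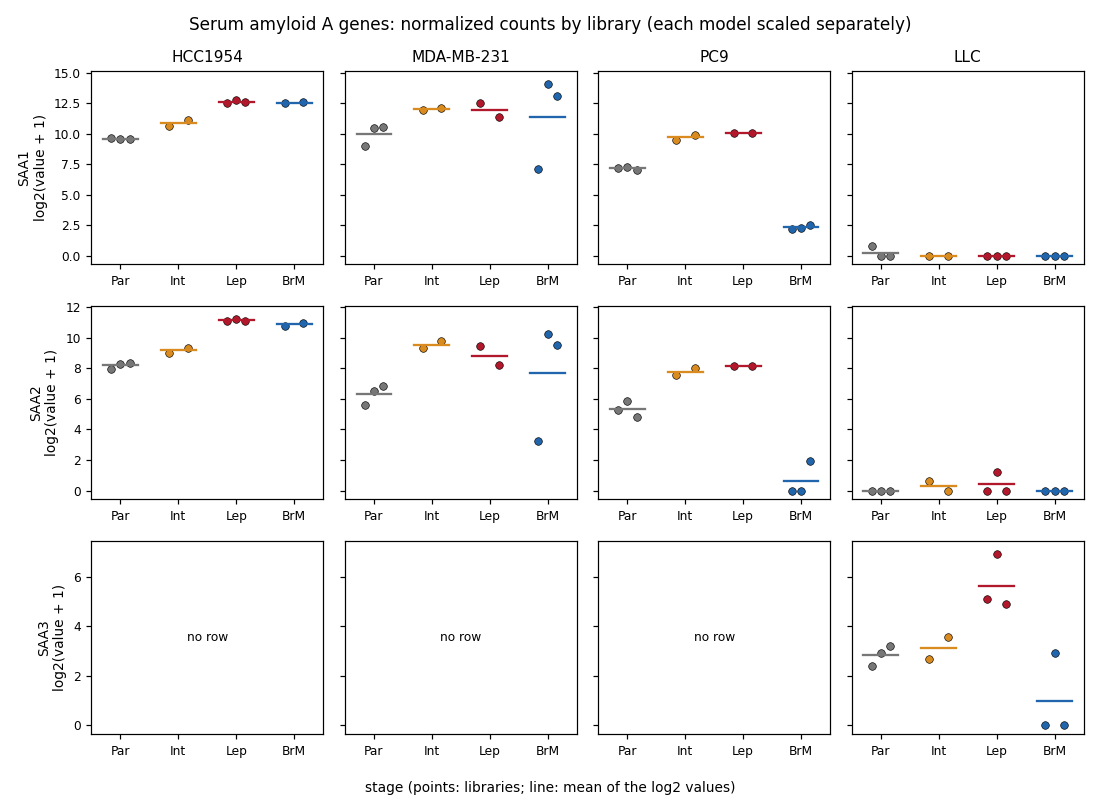
Normalized counts of SAA1, SAA2 and Saa3 in each library on a log2(value + 1) axis, in 4 columns of models and by stage; points are libraries and lines the mean of the log2 values. Lep lies above Par in HCC1954 and PC9 for SAA1 and SAA2, PC9 BrM lies lowest, and in LLC Saa3 is highest in the 3 Lep libraries.

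LLC Lep replicate 2 held the highest Saa3, Il6, Csf1, Csf2 and Csf3 of its stage, and the highest Il11, which was called lower in Lep than in Par. It also held the highest level of 9 of the 11 macrophage and microglia genes found. The list summed to 796, 1213 and 625 in Lep replicates 1, 2 and 3. In Lep replicates 1, 2 and 3 Csf1r was 1.28, 48.6 and 0.703, Ptprc 5.11, 21.7 and 4.92, Mrc1 63.9, 166 and 31.6, and the neutrophil gene S100a8 1.28, 32.0 and 2.11. Cd68, at 238, 208 and 125, and Cx3cr1, at 12.8, 5.11 and 3.51, were highest in replicate 1. The macrophage and microglia list, 11 of whose 12 genes were found, summed to 649 to 707 in Par, 5629 to 6021 in Int, 625 to 1213 in Lep and 795 to 1028 in BrM. The sum in Int came almost wholly from Cd68, a lysosomal protein gene (5159 to 5585), while Csf1r was at or under 0.563 and Tyrobp at 0 in both Int libraries. The 5 genes called higher and the 1 called lower in LLC Lep than in Par were called without Lep replicate 2 as well, and the part of these markers in the results was otherwise not tested.

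TNF, the inflammatory cytokine that is shed from the cell surface by ADAM17, stayed at or under 132 in every library and rose in Lep of 2 models, HCC1954 and PC9. In HCC1954 it was 35.1, 32.0 and 34.3 in Par, 15.8 and 18.9 in Int, 71.5, 60.5 and 83.8 in Lep and 23.3 and 25.0 in BrM. No stages overlapped: Lep was highest and Int and BrM lay below Par. TNF rose by 1.06 ± 0.18 (limma, adjusted p = 0.00011) in Lep against Par, a call lost with a pseudocount of 5 (0.98) or without Lep replicate 3 (0.94). It exceeded Int by 1.98 ± 0.20 (limma, adjusted p = 1.35e-06) and BrM by 1.52 ± 0.20 (limma, adjusted p = 1.66e-05). In Int the difference from Par was -0.93 ± 0.20 (limma, adjusted p = 0.000977), short of the fold threshold, and it passed without Int replicate 2 (-1.05).

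In PC9 TNF followed the serum amyloid genes. It was 18.4, 14.7 and 20.3 in Par, 112 and 86.9 in Int, 93.9 and 75.2 in Lep and 2.35, 1.31 and 1.93 in BrM. Int and Lep overlapped at the top, Par lay between, and BrM was lowest. TNF rose by 2.19 ± 0.29 (limma, adjusted p = 2.3e-05) in Lep and 2.42 ± 0.29 (limma, adjusted p = 1.01e-05) in Int, and fell in BrM (-2.72 ± 0.26, limma, adjusted p = 3.8e-06); the length correction gave 1.85, 2.06 and -2.69. Lep exceeded BrM by 4.91 ± 0.29 (limma, adjusted p = 1.97e-08), and by 4.53 with the length correction.

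MDA-MB-231 had TNF in Int: 34.6 and 132, against 2.02, 0 and 3.23 in Par, 21.1 and 2.99 in Lep and 0, 9.25 and 6.30 in BrM. Both Int libraries lay above every other library, and Lep overlapped Par. Here TNF passed the filter only through Int and Lep, so its difference and p-values are a description. TNF rose by 4.88 ± 1.18 (limma, adjusted p = 0.0379) in Int, a call lost when the Int and Par libraries were fitted alone (adjusted p = 0.0515). It was also lost without Par replicate 2 or Par replicate 3. LLC had almost none: Tnf was 2.19 and 0.563 in Int, 2.81 in Lep replicate 3 and 0 in the other 8 libraries.

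IL6, the leading inducer of the acute phase, was highest in Lep of HCC1954. It was 13.2, 14.2 and 25.0 in Par, 28.4 and 42.0 in Int, 131, 99.5 and 168 in Lep and 15.5 and 11.5 in BrM. Lep lay above Int, Int above Par, and Par and BrM overlapped. IL6 rose in Lep by 2.88 ± 0.28 (limma, adjusted p = 3.55e-07) against Par, 1.88 ± 0.31 (limma, adjusted p = 0.00011) against Int and 3.19 ± 0.31 (limma, adjusted p = 7.29e-07) against BrM. Its rise of 1.00 ± 0.31 (limma, adjusted p = 0.00966) in Int sat on the fold threshold and was lost with a pseudocount of 5 or without Par replicate 1, Par replicate 2 or Int replicate 2 (0.73 to 0.89).

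MDA-MB-231 had IL6 in both Int and Lep. The values were 221, 206 and 93.8 in Par, 1472 and 3407 in Int, 2495 and 932 in Lep and 42.9, 296 and 209.6 in BrM. Int and Lep overlapped, and all 4 of their libraries lay above those of Par and BrM. IL6 rose by 3.78 ± 0.81 (limma, adjusted p = 0.0275) in Int, a call lost without Par replicate 2 or Par replicate 3. The Lep difference of 3.23 ± 0.81 (limma, adjusted p = 0.216) did not pass with limma, nor did 3.45 ± 0.81 (limma, adjusted p = 0.0833) against BrM, and DESeq2 on the recovered reads called both (adjusted p = 0.000458 and 0.000373).

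PC9 did not show this. IL6 was 125, 118 and 103 in Par, 199 and 125 in Int, 185 and 55.2 in Lep and 38.8, 42.0 and 53.0 in BrM, so that the 2 Lep libraries lay on either side of Par and BrM lay below all others. IL6 fell in BrM (-1.36 ± 0.33 (limma, adjusted p = 0.0052); -1.32 with the length correction), and the difference of Lep from Par was -0.18 ± 0.37 (limma, adjusted p = 0.682). Lep exceeded BrM by 1.18 ± 0.37 (limma, adjusted p = 0.0134), a call lost with the length correction (0.77) and without Lep replicate 1 (0.31).

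LLC had Il6 only in its Int and Lep libraries, at low levels. It was 3.84 and 4.50 in Int and 17.9, 26.8 and 3.51 in Lep, and 0 in all 3 Par and all 3 BrM libraries. Against a floor of 3 reads over the Par libraries, mean Il6 was at least 20.1-fold higher in Lep and at least 5.22-fold higher in Int. Against BrM, with the same floor over its libraries, it was at least 9.94-fold higher in Lep and at least 2.58-fold higher in Int. Il6 passed the filter only through Lep replicates 1 and 2, so its Lep differences are a description; they met the call rule with and without the filter. The Int difference from Par passed (limma, adjusted p = 0.0296). The call in Int was lost with a pseudocount of 5, with a replicate block (limma, adjusted p = 0.0648) and without any single Par or Int library (adjusted p from 0.0682 to 0.144).

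IL11, which signals through gp130 and is known as a target of TGF-beta, did not follow IL6. In LLC it was 363, 548 and 561 in Par, 1303 and 1007 in Int, 57.5, 129 and 88.6 in Lep and 152, 138 and 137 in BrM. The stages did not overlap: Int was highest and Lep lowest. Il11 fell in Lep, with a log2 difference of -2.45 ± 0.27 (limma, adjusted p = 2.83e-05) from Par and -3.70 ± 0.31 (limma, adjusted p = 4.52e-06) from Int, and in BrM (-1.75 ± 0.27, limma, adjusted p = 0.000257). It rose in Int by 1.25 ± 0.31 (limma, adjusted p = 0.0111), a call lost without Int replicate 1 (adjusted p = 0.103).

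In PC9 IL11 was 427, 421 and 436 in Par, 592 and 359.7 in Int, 541 and 402 in Lep and 1117, 1170.5 and 1223 in BrM. The BrM libraries stood above all others, and Par, Int and Lep overlapped. IL11 rose in BrM by 1.45 ± 0.15 (limma, adjusted p = 8.85e-06) and was lower in Lep than in BrM (-1.32 ± 0.17, limma, adjusted p = 1.39e-05). With the length correction these were 1.47 and -1.58. In HCC1954 it was 95.4, 72.3 and 84.3 in Par, 35.3 and 40.9 in Int, 42.2, 48.7 and 40.0 in Lep and 69.9 and 54.3 in BrM. Par was highest and Int and Lep overlapped at the bottom. IL11 fell in Int (-1.12 ± 0.19, limma, adjusted p = 0.000119), a call lost with quantile normalization (-0.38), and in Lep the difference was -0.93 ± 0.17 (limma, adjusted p = 0.000186), short of the fold threshold, and passed without Par replicate 2 (-1.03) or Lep replicate 2 (-1.01). In MDA-MB-231 it was 3544, 3258 and 3783 in Par, 8331 and 13015 in Int, 9871 and 2948 in Lep and 2309.7, 3415 and 3027 in BrM. Int lay above Par and BrM, and the Lep replicates fell on either side of Par. The Int difference of 1.56 ± 0.43 (limma, adjusted p = 0.0506) missed the threshold with limma and passed with edgeR (adjusted p = 0.042), DESeq2 (0.00368), quantile normalization, a pseudocount of 5, the length correction, the Int and Par libraries alone and without Par replicate 1.

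LIF, a gp130 ligand known for its action on stem cells and on the stress response, peaked outside Lep in every model. In HCC1954 it was 996, 914 and 1023 in Par, 3246 and 3452 in Int, 1788, 1819.7 and 2281 in Lep and 5099.5 and 4695 in BrM. No stages overlapped, and the order was BrM, Int, Lep, Par. LIF rose by 2.32 ± 0.09 (limma, adjusted p = 3.78e-11) in BrM and 1.78 ± 0.09 (limma, adjusted p = 6.77e-10) in Int. In Lep it differed from Par by 1.00 ± 0.08 (limma, adjusted p = 4.29e-08), which sat on the fold threshold and passed with DESeq2 (1.00) and without Par replicate 1, Par replicate 3, Lep replicate 1 or Lep replicate 2 (1.01 to 1.06). Lep was lower than BrM (-1.33 ± 0.09, limma, adjusted p = 1.55e-08).

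In LLC Lif was 514, 754 and 775 in Par, 3511 and 2489.9 in Int, 603, 842 and 1136 in Lep and 328, 282 and 329 in BrM. Int was highest, Lep and Par overlapped, and BrM was lowest. Lif rose in Int by 2.14 ± 0.26 (limma, adjusted p = 0.000194), was lower in Lep than in Int (-1.83 ± 0.26, limma, adjusted p = 0.000181), and exceeded BrM in Lep by 1.41 ± 0.23 (limma, adjusted p = 0.00061). It fell in BrM (-1.10 ± 0.23, limma, adjusted p = 0.002), a call lost with quantile normalization (-0.91) and without Par replicate 3 (-0.99). In MDA-MB-231 LIF was 4425, 3943 and 3910.4 in Par, 8263 and 8794 in Int, 5925 and 7098 in Lep and 3409.8, 4129.8 and 3717 in BrM. Int lay above Lep and Lep above Par, which overlapped BrM. The Int rise was 1.06 ± 0.15 (limma, adjusted p = 0.0093), a call lost with the length correction (0.98) or without Par replicate 2. The Lep difference was 0.67 ± 0.15 (limma, adjusted p = 0.169). In PC9 the range was narrow, from 1779 to 2527 over the 10 libraries, with BrM above the overlapping Par, Int and Lep, and no comparison passed.

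**Figure D2:**
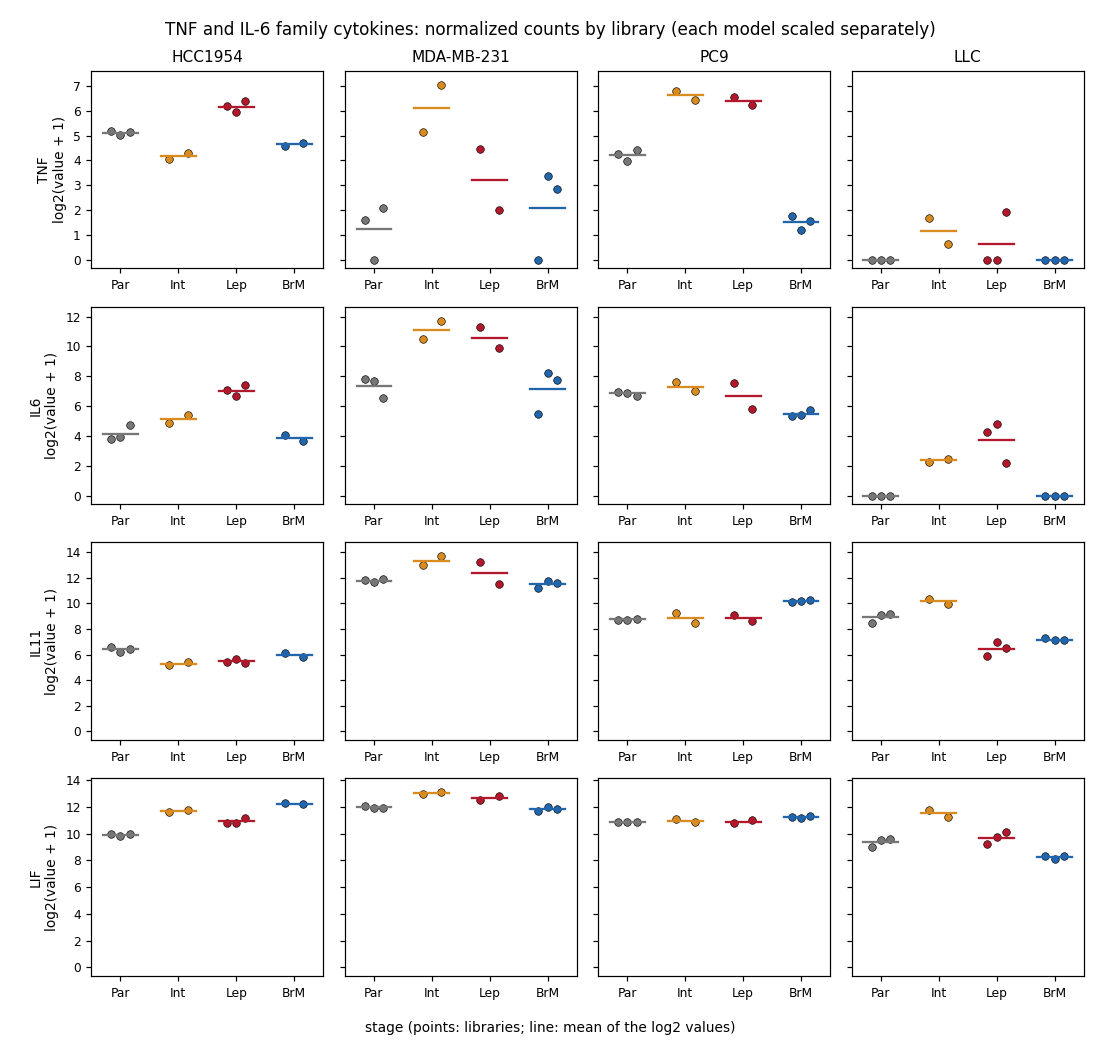
Normalized counts of TNF, IL6, IL11 and LIF in each library on a log2(value + 1) axis, by model and stage; points are libraries and lines the mean of the log2 values. Within HCC1954, TNF and IL6 are highest in Lep and LIF in BrM; within LLC, IL11 is lowest in Lep and LIF highest in Int; within PC9, IL11 is highest in BrM.

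CSF1, the factor that macrophages and microglia need to survive, rose in Lep and Int of LLC and in Int of MDA-MB-231. In LLC it was 5784, 6454 and 6595 in Par, 12409 and 14651 in Int, 15525, 21988 and 14817 in Lep and 6447, 5915 and 6574 in BrM. Lep lay above Int and Int above Par and BrM, which overlapped. Csf1 rose in Lep by 1.45 ± 0.15 (limma, adjusted p = 1.45e-05) against Par and 1.44 ± 0.15 (limma, adjusted p = 2.03e-05) against BrM. The Int rise of 1.11 ± 0.16 (limma, adjusted p = 0.000696) was lost without Int replicate 2 (0.99). In MDA-MB-231 CSF1 was 6087, 4668 and 4035 in Par, 31891 and 39145 in Int, 18160.1 and 5158 in Lep and 3616, 18530.1 and 13162 in BrM. Int was highest and the other stages overlapped. CSF1 rose in Int by 2.86 ± 0.68 (limma, adjusted p = 0.0363), a call lost with a replicate block (limma, adjusted p = 0.0545). It was also lost without Par replicate 2 or Par replicate 3. In HCC1954 it was 2025, 1958 and 2109.7 in Par, 2205 and 2254 in Int, 3046, 2984 and 3018 in Lep and 2648 and 2558 in BrM. The 4 stages were separate, but the largest difference from Par, in Lep, was 0.57 ± 0.03 (limma, adjusted p = 2.08e-09), under the fold threshold. PC9 ranged from 418 to 763, with Int highest, and no comparison passed.

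CSF2, which acts on granulocytes, macrophages and dendritic cells, rose in Lep of HCC1954 and LLC. In HCC1954 it was 14.3, 7.11 and 10.5 in Par, 8.43 and 8.92 in Int, 283, 266 and 240 in Lep and 31.1 and 41.7 in BrM. Lep was far above BrM, and BrM above the overlapping Par and Int. CSF2 rose by 4.55 ± 0.23 (limma, adjusted p = 4.56e-10) in Lep and 1.72 ± 0.26 (limma, adjusted p = 3.69e-05) in BrM, and Lep exceeded Int by 4.77 ± 0.26 (limma, adjusted p = 3.62e-09) and BrM by 2.83 ± 0.26 (limma, adjusted p = 3.99e-07). In LLC Csf2 was 7.11, 5.97 and 4.76 in Par, 14.3 and 42.8 in Int, 25.6, 74.1 and 24.6 in Lep and 0 in all 3 BrM libraries. Lep and Int overlapped above Par. Csf2 passed the filter there only through Int and Lep, so its differences and p-values are a description. Csf2 rose in Lep by 2.43 ± 0.52 (limma, adjusted p = 0.00231). Its Int rise of 1.91 ± 0.58 (limma, adjusted p = 0.0301) was lost without any single Par library or Int replicate 2 (adjusted p from 0.0603 to 0.3003). With BrM taken at 3 reads over its libraries, mean Csf2 was at least 25.6-fold higher in Lep, at least 17.6-fold higher in Int and at least 3.68-fold higher in Par than in BrM; the Lep and Par differences passed (limma, adjusted p = 1.64e-05 and 0.000813).

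MDA-MB-231 had its highest CSF2 in Int: 4232 and 6838, against 238, 189 and 144 in Par, 3447 and 557 in Lep and 103, 1407 and 887 in BrM. Int lay above Lep and both above Par, and BrM overlapped Lep and Par. CSF2 rose in Int by 4.84 ± 1.05 (limma, adjusted p = 0.0283), a call lost without Par replicate 2 or Par replicate 3. The Lep difference of 2.89 ± 1.05 (limma, adjusted p = 0.385) did not pass with limma and passed with DESeq2 (adjusted p = 0.0454). In PC9 CSF2 was 14.7, 19.5 and 17.6 in Par, 28.9 and 16.4 in Int, 25.7 and 18.4 in Lep and 11.8, 17.1 and 19.3 in BrM. All stages overlapped.

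CSF3, the growth factor of neutrophils, rose in Int of MDA-MB-231 and in Int and Lep of LLC. In MDA-MB-231 it was 58.4, 86.3 and 90.6 in Par, 5570.5 and 6211 in Int, 9373 and 14987 in Lep and 53.6, 4213 and 2403 in BrM. Lep lay above Int, Int above BrM, and BrM replicate 1 alone was below Par. CSF3 rose in Int by 6.24 ± 1.47 (limma, adjusted p = 0.0352), a call lost without Par replicate 2 or Par replicate 3. The Lep difference was 7.25 ± 1.47 (limma, adjusted p = 0.111) with all libraries of the model, and it passed with DESeq2 (adjusted p = 1.4e-06) and with limma on the Lep and Par libraries alone (adjusted p = 0.00346). In LLC Csf3 was 2.13, 0.664 and 2.38 in Par, 67.4 and 38.8 in Int, 40.9, 247 and 64.0 in Lep and 2.54, 6.55 and 3.29 in BrM. Lep and Int overlapped, and both lay above BrM, which lay above Par. Csf3 passed the filter there only through Int and Lep, so its differences and p-values are a description. Csf3 rose by 5.07 ± 0.60 (limma, adjusted p = 4.64e-05) in Lep and 4.33 ± 0.68 (limma, adjusted p = 0.000931) in Int, and Lep exceeded BrM by 4.17 ± 0.60 (limma, adjusted p = 0.00025). In BrM the difference of 0.90 ± 0.60 (limma, adjusted p = 0.226) did not pass, and quantile normalization called it (2.03). Csf3 had 7 reads in all over the BrM libraries and 6 over the Par libraries, so the order of BrM and Par is uncertain.

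HCC1954 had little CSF3 outside Lep. It was 3.29, 0 and 5.27 in Par, 0.527 and 1.05 in Int, 29.3, 25.9 and 42.5 in Lep and 1.29 and 2.09 in BrM. Every Lep library lay above all others. It passed the filter only through Lep. The log2 difference of Lep was 3.46 ± 0.56 from Par, 4.22 ± 0.63 from Int and 3.63 ± 0.63 from BrM, given as a description; all 3 also met the call rule when no filter was applied. In PC9 CSF3 was under the filter, at 7.36, 3.66 and 2.70 in Par, 5.03 and 3.28 in Int, 5.87 and 3.34 in Lep and 0 in the 3 BrM libraries.

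**Figure D3:**
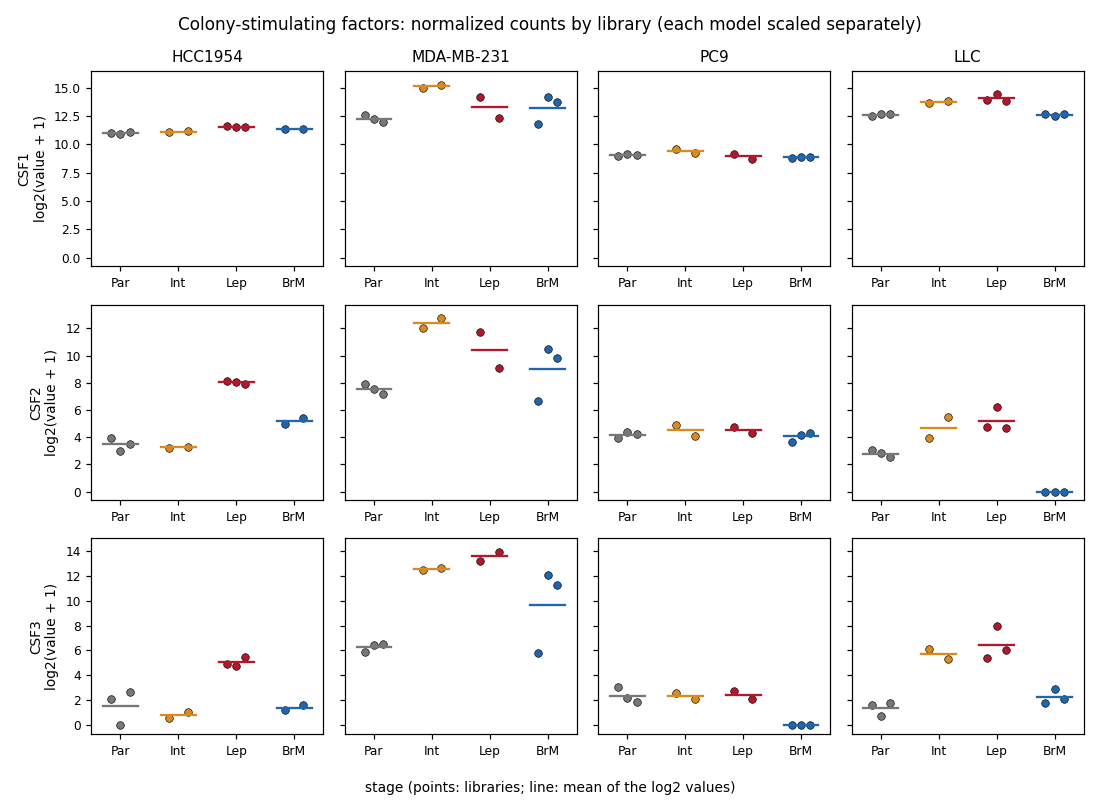
Normalized counts of CSF1, CSF2 and CSF3 in each library on a log2(value + 1) axis, by model and stage; points are libraries and lines the mean of the log2 values. Within HCC1954, CSF2 and CSF3 are highest in Lep; in LLC all 3 genes are higher in Int and Lep than in Par and BrM, and in MDA-MB-231 BrM replicate 1 lies far below BrM replicates 2 and 3.

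The counts below use the call rule of an adjusted p below 0.05 and a log2 fold change of at least 1 in size. They and the medians are descriptions, because some members passed the filter only through the stages where they were high. In HCC1954, 6 of 9 members were called higher in Lep than in Par (SAA1, SAA2, TNF, IL6, CSF2 and CSF3), where 13.0% of all tested genes were called higher and 13.8% lower. Against Int, 6 members were higher in Lep, the same 6, where 11.7% of all tested genes were called higher and 3.47% lower; against BrM 4 were higher (TNF, IL6, CSF2 and CSF3) and LIF was lower, where 10.5% of all tested genes were called higher and 6.54% lower. In Int 3 members were higher than in Par (SAA1, IL6 and LIF) and IL11 was lower, where 6.60% of all tested genes were called higher and 14.6% lower. In BrM 4 were higher than in Par (SAA1, SAA2, LIF and CSF2), where 9.63% of all tested genes were called higher and 14.0% lower. The median log2 difference of the 9 members in Lep with Par was 2.88, and that of all tested genes -0.02.

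In MDA-MB-231, 6 of 9 members were called higher in Int than in Par (TNF, IL6, LIF, CSF1, CSF2 and CSF3), where 4.33% of all tested genes were called higher and 2.61% lower. Leaving out Par replicate 2, Int replicate 1 or Int replicate 2 left 0 of these calls, and leaving out Par replicate 3 left that of LIF. With the length correction the log2 differences in Int with Par were 5.33 for TNF, 4.28 for IL6, 2.74 for CSF1, 5.54 for CSF2 and 6.69 for CSF3, all called; LIF lost its call and IL11 gained one. In Lep with Par limma called 0 members, edgeR 0 and DESeq2 3 (IL6, CSF2 and CSF3), 4 had an unadjusted p below 0.05, and 0.0199% of all tested genes were called higher and 0.0463% lower. In BrM with Par limma called 0, edgeR 0 and DESeq2 1 (CSF3), 1 had an unadjusted p below 0.05, and 0.344% of all tested genes were called higher and 0.106% lower; without BrM replicate 1 the count was 3 (SAA1, SAA2 and CSF3). In Lep with Int limma called 0, edgeR 0 and DESeq2 0, 2 had an unadjusted p below 0.05, 0.0265% of all tested genes were called higher and 0.132% lower, and without Lep replicate 1 IL11 was called. In Lep with BrM limma called 0, edgeR 0 and DESeq2 1 (IL6), 3 had an unadjusted p below 0.05, 0.344% of all tested genes were called higher and 0.483% lower, and without Lep replicate 2 IL11 was called. The median of the 9 members in Lep with Par was 2.01, and that of all tested genes -0.01.

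In PC9, SAA1, SAA2 and TNF, 3 of the 8 members tested, were called higher in Lep than in Par, where 6.65% of all tested genes were called higher and 8.49% lower. The same 3 were higher in Int than in Par, where 6.24% of all tested genes were called higher and 7.71% lower. In BrM 4 were lower than in Par (SAA1, SAA2, TNF and IL6) and IL11 was higher, where 4.62% of all tested genes were called higher and 3.10% lower. Those 4 were higher in Lep than in BrM and IL11 lower, where 7.83% of all tested genes were called higher and 10.8% lower. Between Lep and Int limma called 0, edgeR 0 and DESeq2 0, 1 had an unadjusted p below 0.05, and 0.228% of all tested genes were called higher and 0.380% lower; without Lep replicate 1 IL6 was called. With the length correction, the PC9 call lost was that of IL6 in Lep with BrM. The median of the 8 in Lep with Par was 0.22, against 0.02 for all tested genes.

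In LLC, 5 of the 7 members tested were called higher in Lep than in Par (Saa3, Il6, Csf1, Csf2 and Csf3) and Il11 lower, where 8.0% of all tested genes were called higher and 12.3% lower. In Int 6 were higher than in Par, all but Saa3, where 6.40% of all tested genes were called higher and 5.08% lower, and without Int replicate 2 the count was 3 (Il11, Lif and Csf3). In BrM 3 were lower than in Par (Il11, Lif and Csf2), where 8.14% of all tested genes were called higher and 15.1% lower. Lep exceeded BrM for 6, all but Il11, where 11.1% of all tested genes were called higher and 6.85% lower. Against Int, Saa3 was higher in Lep and Il11 and Lif lower, where 8.47% of all tested genes were called higher and 14.0% lower. With stages at 0 taken at the floor of 3 reads, the median of the 7 in Lep with Par was 2.43, against 0.00 for all tested genes. Il6 passed the filter through Lep alone and Saa3, Csf2 and Csf3 through Int and Lep alone. The LLC counts and this median are therefore descriptions and not a test against the shares of all genes. Comparisons with Par share the Par libraries, so these counts are not independent of each other.

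**Figure D4:**
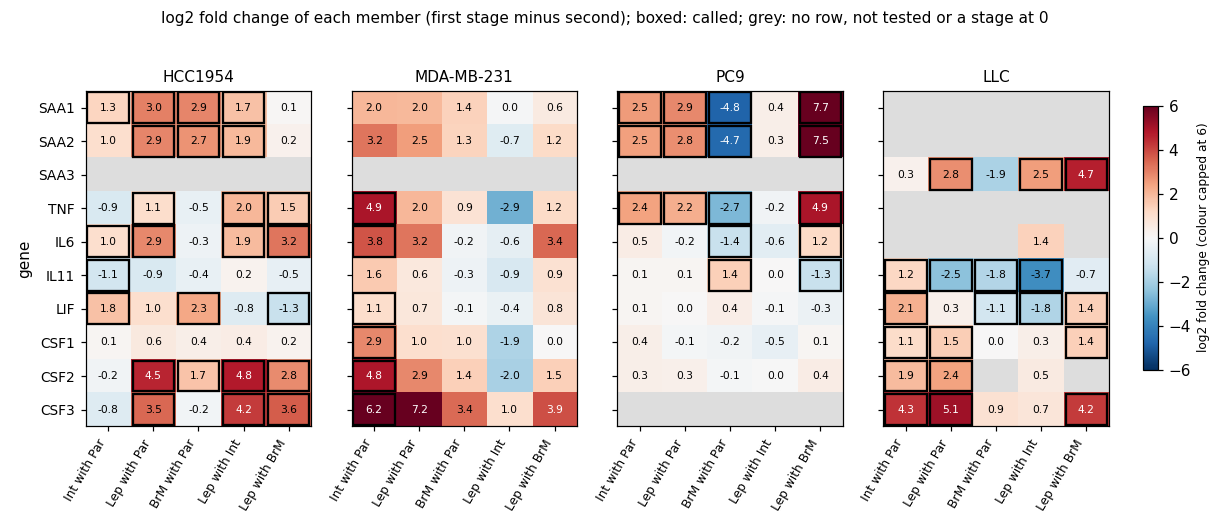
Log2 fold change of each member (rows) in the 5 comparisons of each model (columns), first stage minus second, with calls boxed and grey cells where a gene had no row, was not tested or had a stage at 0. In Lep with Par, 6 cells are boxed in HCC1954, 0 in MDA-MB-231, 3 in PC9 and 5 in LLC, where Il6 was also called but is grey because Par is at 0.

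The receptors of these ligands were described over a list of 14 genes. In Lep with Par, 4 of 12 tested were called higher and 2 lower in HCC1954, 0 and 2 of 9 in PC9, and 2 and 0 of 8 in LLC. Over all tested genes, 13.0% were called higher and 13.8% lower in HCC1954, 6.65% and 8.49% in PC9. The shares were 8.0% and 12.3% in LLC and 0.0199% and 0.0463% in MDA-MB-231. These shares stand beside the Lep with Par counts of every list below, which are descriptions. TLR2, a receptor for serum amyloid A and bacterial lipoproteins, rose in HCC1954 from 30.6 ± 9.35 in Par to 1877 ± 48.8 in Lep normalized counts (mean ± SD over the libraries of a stage, here and below), a log2 difference of 5.93 ± 0.15 (± SE). TLR4, the endotoxin receptor, fell there from 180 ± 7.49 in Par to 0.417 ± 0.722 in Lep (-7.11 ± 0.42) and in PC9 from 197 ± 13.0 in Par to 10.3 ± 3.16 in Lep (-4.16 ± 0.19). In LLC Lifr, the LIF receptor, rose from 27.7 ± 4.13 in Par to 187 ± 43.4 in Lep (2.70 ± 0.27). IL6ST, which encodes gp130, was not called in Lep with Par in any model: the log2 difference was 0.38 ± 0.03 in HCC1954, 0.87 ± 0.50 in MDA-MB-231, -0.68 ± 0.09 in PC9 and -0.37 ± 0.23 in LLC. In LLC BrM, Il6st fell against Par (-1.71 ± 0.23). CSF1R, the receptor of CSF1, was not called in Lep with Par in the 3 human models; it fell in HCC1954 Int (-3.62 ± 0.27) and BrM (-2.74 ± 0.27) and rose in PC9 BrM (2.13 ± 0.13) and MDA-MB-231 Int (1.99 ± 0.42) against Par.

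Other ligands of these families moved in both directions. Of the list of 13, 3 of 7 tested were called higher and 3 lower in HCC1954 Lep with Par, 1 and 0 of 4 in PC9, and 1 and 2 of 6 in LLC. SAA4, the constitutive serum amyloid gene, rose in HCC1954 from 5.81 ± 4.91 in Par to 51.7 ± 13.3 in Lep (3.23 ± 0.51), while CTF1, a gp130 cytokine of heart muscle, fell from 109 ± 17.4 in Par to 2.22 ± 2.17 in Lep (-5.39 ± 0.55). LTB, a membrane-bound member of the TNF family, rose in PC9 from 23.2 ± 2.10 in Par to 82.8 ± 9.49 in Lep (1.79 ± 0.38). In LLC Ltb fell from 10.7 ± 0.711 in Par to 2.79 ± 3.13 in Lep (-1.93 ± 0.72) and Cntf, a gp130 ligand, rose from 4.46 ± 2.04 in Par to 15.0 ± 0.776 in Lep (1.63 ± 0.44).

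Of the list of 16 JAK-STAT signalling and feedback genes, 5 were called higher and 0 lower in HCC1954 Lep with Par, 2 and 0 in PC9, and 0 and 2 in LLC. In HCC1954 SOCS1, an inhibitor of JAK kinases, rose from 66.3 ± 8.46 in Par to 1334 ± 82.2 in Lep (4.32 ± 0.14), SOCS3 from 841 ± 15.3 in Par to 3334 ± 246 in Lep (1.98 ± 0.07) and STAT3 from 10914 ± 49.9 in Par to 26213 ± 1146 in Lep (1.26 ± 0.03). STAT3 was not called in the other models, at 0.30 ± 0.21 in MDA-MB-231, -0.22 ± 0.07 in PC9 and 0.08 ± 0.12 in LLC. SOCS3 was not called there either, at -0.10 ± 0.18, 0.37 ± 0.08 and -0.39 ± 0.14. STAT5A, which carries GM-CSF signals, rose in PC9 from 29.8 ± 5.16 in Par to 118 ± 36.8 in Lep (1.93 ± 0.24), and Pim1, a kinase gene that STATs induce, fell in LLC from 1155 ± 48.6 in Par to 471 ± 99.0 in Lep (-1.31 ± 0.15).

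Acute-phase genes other than serum amyloid form a list of 16. In Lep with Par, 8 of 11 tested were called higher and 1 lower in HCC1954, 3 and 0 of 5 in PC9, and 2 and 1 of 4 in LLC. The list's median log2 difference was 2.23, 1.19 and 2.86, against -0.02, 0.02 and 0.00 over all tested genes. LBP, which carries bacterial lipopolysaccharide, rose in HCC1954 from 93.5 ± 21.8 in Par to 3467 ± 462 in Lep (5.21 ± 0.13) and Lbp fell in LLC from 66.3 ± 8.01 in Par to 3.69 ± 2.35 in Lep (-3.95 ± 0.52). PTX3, a pentraxin, fell in HCC1954 from 26.4 ± 3.37 in Par to 6.20 ± 0.315 in Lep (-1.92 ± 0.40). CP, the copper-carrying ferroxidase ceruloplasmin, rose in PC9 from 7.59 ± 2.47 in Par to 54.7 ± 8.77 in Lep (2.73 ± 0.39), and Lcn2, the siderophore binder lipocalin, rose in LLC from 1.74 ± 1.39 in Par to 229.9 ± 33.8 in Lep (6.50 ± 0.45). In BrM with Par, 9 of 11 were called higher and 1 lower in HCC1954, 0 and 4 of 5 in PC9 (0 and 2 with edgeR) and 0 and 3 of 4 in LLC. The shares of all tested genes called higher and lower there were 9.63% and 14.0% in HCC1954. They were 4.62% and 3.10% in PC9 and 8.14% and 15.1% in LLC.

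Of 14 transcription factor genes of the NF-kB, C/EBP and AP-1 families, 4 were called higher and 1 lower in HCC1954 Lep with Par, 3 and 1 in PC9 and 2 and 1 in LLC. NFKBIZ, a nuclear inhibitor-like cofactor of NF-kB, rose in HCC1954 from 1649.7 ± 77.8 in Par to 10003 ± 57.5 in Lep (2.60 ± 0.06). FOS, a subunit of AP-1, fell there from 655 ± 105 in Par to 285 ± 50.2 in Lep (-1.20 ± 0.23) and rose in PC9 from 819 ± 294 in Par to 5191 ± 1800.1 in Lep (2.68 ± 0.29). REL, an NF-kB subunit, fell in PC9 from 201 ± 25.7 in Par to 39.3 ± 3.56 in Lep (-2.32 ± 0.22) and Rel rose in LLC from 38.4 ± 9.52 in Par to 239 ± 59.7 in Lep (2.60 ± 0.38), where Cebpa fell from 633 ± 28.9 in Par to 99.0 ± 40.9 in Lep (-2.74 ± 0.25).

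Of 12 genes of TNF processing and signalling, 5 were called higher and 1 lower in HCC1954, 1 and 0 in PC9 and 4 and 0 in LLC. TNFAIP3, the feedback inhibitor A20, rose in HCC1954 from 1443 ± 97.6 in Par to 6267 ± 94.6 in Lep (2.12 ± 0.06) and TRADD, a TNF receptor adaptor, fell from 901 ± 37.2 in Par to 376 ± 19.7 in Lep (-1.26 ± 0.06). TRAF1, another adaptor and NF-kB target, rose in PC9 from 30.9 ± 7.74 in Par to 68.2 ± 4.21 in Lep (1.15 ± 0.25) and in LLC from 47.5 ± 12.9 in Par to 799.7 ± 227 in Lep (4.03 ± 0.29). In MDA-MB-231 limma called 0 and edgeR 0 of the 64 tested genes of the 6 lists in Lep with Par, DESeq2 called 7, and 18 had an unadjusted p below 0.05. Every log2 difference called in these lists had a limma adjusted p below the threshold, and the list genes were chosen with earlier results of these data known. List genes met the same filter as the members, so genes low in Par, such as Lcn2 and Cntf in LLC, passed it through other stages. The differences of such genes, and the medians over tested list genes, are descriptions. Values of list genes are given without the length correction, including those of PC9, where the length trend followed the stage.

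**Figure D5:**
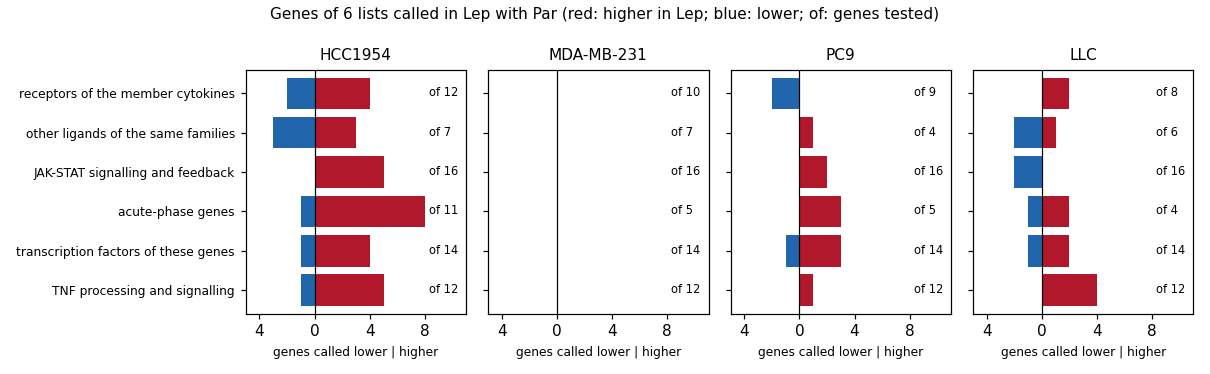
Number of genes of 6 lists called in Lep with Par in each model, with higher to the right (red) and lower to the left (blue) of 0, and the number tested at the right. The longest bar is that of acute-phase genes in HCC1954 (8 of 11), and MDA-MB-231 has none.

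The genes whose levels followed a member most closely over the libraries of a model were found by Pearson's r on log2(value + 1), as a description over 10 or 11 libraries that share stages. In HCC1954 they were CITED4 and GCNT3 for SAA1 (0.996 and 0.996), GOLGA7 and E2F2 for SAA2 (0.998 and 0.995), BICD2 and AAK1 for IL6 (0.983 and 0.981), ARHGEF11 and SLC39A7 for LIF (0.993 and 0.992), UBD and PLCG1 for CSF1 (0.994 and 0.993) and SEMA6C and CLIP2 for CSF2 (0.998 and 0.995). In MDA-MB-231 SAA1 and SAA2 were each other's nearest gene (0.973), followed by SDC4 for SAA1 (0.929) and HBEGF for SAA2 (0.951). There CSF3 was followed by C3 and CXCL2 (0.983 and 0.976), CSF1 by KLRC2 and NFE2L1 (0.983 and 0.974), IL6 by TMEM171 and FIG4 (0.990 and 0.968), IL11 by AGFG2 and PPP4R4 (0.983 and 0.971) and LIF by STC1 and TNS4 (0.980 and 0.976). In PC9 SAA1 was followed by FBP1 and S100A9 (0.996 and 0.996), SAA2 by TMCO1 and CBR3 (0.991 and 0.991), IL6 by LASP1 and TNK1 (0.972 and 0.966), IL11 by GRK6 and MYH9 (0.990 and 0.988), LIF by BCKDHA and LTBP3 (0.953 and 0.952) and CSF1 by SIPA1 and INO80E (0.951 and 0.917). In LLC Il11 was followed by Rhoq and Cdkn1a (0.992 and 0.989), Lif by Ctbs and Syt17 (0.985 and 0.970), Csf1 by Cd40 and Dclk1 (0.984 and 0.981) and Csf3 by Dclk1 and Fstl1 (0.968 and 0.965).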

How the data were processed

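Paired-end HiSeq reads came from TruSeq RNA libraries, per the labels' protocols. The submitters' processing notes name FastQC 0.11.3, HTSeq 0.5.4, DESeq2 and the builds hg19/GRCh37 and mm10/GRCm38; no source used here names an aligner. For each model the authors deposited normalized counts in 1 table. These deposited values behave as a signal equal to reads divided by 1 size factor per library: 100% were whole multiples of 1 step within 0.01, so reads were recovered for edgeR 4.0.16 and DESeq2 1.42.0 as alternatives. limma 3.58.1 (R 4.3.3; trend, all libraries of a model together) was fitted to log2(value + 1) for genes that reached 10 in 2 or more libraries. Fold changes on that scale understate the change of low genes. P-values were adjusted by Benjamini-Hochberg over all tested genes, in 20 comparisons; calls needed an adjusted p below 0.05 and a log2 fold change of at least 1 in size. Code was tested on simulated data. Members and lists were chosen with earlier results of these data known. Members and the 6 lists were named from fixed lists, list genes by largest called change plus IL6ST, CSF1R, STAT3 and SOCS3; the 2 nearest genes were sought for members with a mean of at least 100 in a stage, and those of CSF2 in MDA-MB-231 are not reported here. Alternatives were other tools, normalizations, filters, pseudocounts, left-out libraries, a replicate block and, in the human models, a length correction. Fits with a library left out kept the set of tested genes chosen with all libraries. No replicates of a stage agreed within sampling noise (chi-square per degree of freedom from 1.53 to 453.8), and groups came from the labels. Replicate numbers are not said to mark a shared animal, culture or day. A possible pairing was noted where all of 3 or more same-numbered pairs correlated by over 0.1. This held for Par and BrM of MDA-MB-231 (0.50, 0.27 and 0.23). In both stages replicate 1 also stood apart from replicates 2 and 3 in length trend, and the source of these correlations was not tested. With a replicate block 0 members were called in BrM with Par of MDA-MB-231, as without it.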

Additional observations from a re-analysis of the deposited data

Results flagged for a closer look

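Some members moved one way in every library of a stage in one model and the opposite way in another. These differences between models were not tested, since each model was scaled alone. They were listed because libraries did not overlap, and several did not meet the call rule. Not called were every CSF1 value and every MDA-MB-231 value other than TNF in Int with Par. Neither were IL11 in BrM with Par and TNF in Int with Par of HCC1954, nor either LIF value of PC9. SAA1 in BrM with Par differed by 2.95 on the log2 scale in HCC1954 and by -4.82 in PC9, and SAA2 by 2.68 and -4.65. IL11 in BrM with Par differed by -0.43 in HCC1954, 1.45 in PC9 and -1.75 in LLC, and in Int with Par by -1.12 in HCC1954, 1.56 in MDA-MB-231 and 1.25 in LLC. LIF in BrM with Par differed by 2.32 in HCC1954, 0.39 in PC9 and -1.10 in LLC. In Lep with BrM, LIF differed by -1.33 in HCC1954, 0.79 in MDA-MB-231, -0.35 in PC9 and 1.41 in LLC. TNF in Int with Par differed by 4.88 in MDA-MB-231, 2.42 in PC9 and -0.93 in HCC1954, and in Lep with Int by 1.98 in HCC1954 and -2.87 in MDA-MB-231. CSF2 in Lep with Int differed by 4.77 in HCC1954 and -1.96 in MDA-MB-231. CSF1 in BrM with Par differed by 0.36 in HCC1954 and -0.22 in PC9, and in Lep with Int by 0.44 in HCC1954, -1.87 in MDA-MB-231, -0.49 in PC9 and 0.35 in LLC.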

How the results depend on the processing

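Of 259 counts of called members recomputed under an alternative, 246 stayed within 1.5 times the reported count and 13 did not. Of 1467 values of single members, 1385 kept their direction and side of the threshold, 53 lost a call, 28 gained one and 1 turned: TNF in HCC1954 BrM with Par went from -0.47 to 0.0019 with quantile normalization, and the cause was not tested. In MDA-MB-231, DESeq2 called 3 members in Lep with Par, 1 in BrM with Par and 1 in Lep with BrM, where limma called 0, and the fit of 2 groups only called 1 in Lep with Par; the cause was not tested. Leaving out 1 library at a time gave 0 to 7 calls in MDA-MB-231 Int with Par, 0 to 3 in BrM with Par, 0 to 1 in Lep with Int and 0 to 1 in Lep with BrM, 0 to 1 in PC9 Lep with Int and 3 to 4 in LLC Int with Par. Quantile normalization moved the share of higher genes among all calls from 31.1% to 54.4% in HCC1954 Int with Par, 40.8% to 54.8% in BrM with Par and 77.1% to 58.0% in Lep with Int, from 16.7% to 30% in MDA-MB-231 Lep with Int, and from 35.0% to 50.5% in LLC BrM with Par and 37.7% to 48.5% in Lep with Int. It moved the median of all genes from 0.01 to 0.12 in HCC1954 Int with Par. Deviations of same-numbered libraries from their stage means correlated by over 0.1 in 4 of 13 pairs in MDA-MB-231, 4 of 15 in LLC and 0 of 13 in HCC1954 and in PC9. With a replicate block the counts in Lep with Par were 6 in HCC1954, 0 in MDA-MB-231, 3 in PC9 and 6 in LLC, and in Int with Par 5, 5, 3 and 5, and no count moved by over 1.5 times. Genes with few reads, such as LLC Il6, are limited by depth.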
